A study of Mus musculus with 6 samples.

Results

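The genes described here are those named Ift, Bbs, Cep or Tctn followed by a number, which code for intraflagellar transport, BBSome, centrosomal and tectonic proteins, measured in the testes of Prss54 knockout and wild-type mice. They were chosen by gene name alone on the microarray: 105 of its 41174 gene probes carry such a name, and they stand for 49 of its 27376 gene names. The 49 genes comprise 13 Ift, 8 Bbs, 25 Cep and 3 Tctn genes. Cep110 is listed in RefSeq as Cntrl, the gene of centriolin, and is the only one of the 49 with a new symbol there. Total RNA from whole testis was hybridised to 1-colour Agilent arrays, 1 array a mouse, from 3 Prss54KO and 3 WT males, 6 to 8 weeks old, of mixed 129Sv and C57BL/6 background. Prss54 codes for a serine protease-like protein of testis. The labels do not say how the gene was disrupted, and they name no other allele or treatment for either group.

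Intraflagellar transport builds cilia and flagella by moving large protein trains along the microtubules of the axoneme. The IFT-B complex travels to the tip with kinesin-2, and the IFT-A complex is needed for the return trip with cytoplasmic dynein-2. The BBSome, the octameric product of Bardet-Biedl syndrome genes, rides on these trains and carries membrane proteins, while tectonic proteins sit in the transition zone, the gate between the basal body and the cilium. Centrosomal (Cep) proteins build and modify the centrioles, from which the basal body of the axoneme is made. In the mouse testis, germ cells need IFT and BBSome genes to form the sperm tail.

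No gene of this group passed the test of Prss54KO against WT testes. Of the 49 genes, 48 had a probe that stood well above background on 3 or more arrays and were tested, each by its brightest such probe. In limma's moderated test with Benjamini-Hochberg adjustment over all 19398 genes tested, 0 of the 48 passed an adjusted p of 0.05, where 0% of all genes did. At an unadjusted p under 0.05 there were also 0 of 48, against 3.3% of all genes (640 genes). The log2 difference, Prss54KO minus WT, lay between -0.11 (Cep76) and 0.11 (Cep192), so that the farthest gene stood 1.08-fold from WT. Every adjusted p in the group was 1.0 after rounding, and the smallest unadjusted p was 0.106.

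The precision of these values was enough to bound the differences. The 95% interval of the difference lay within 1.5-fold either way for 48 of 48 genes, against 88.1% of all genes. The median absolute log2 difference was 0.042 in the group and 0.057 over all genes. Replicate spread was small as well: the median SD of the log2 level was 0.065 in Prss54KO and 0.075 in WT mice for these genes, against 0.098 in Prss54KO and 0.088 in WT mice over all genes. The group's probes were more often well above background on all 6 arrays, 90.5% against 64.98% of all gene probes. Among its probes the median SE fell from 0.17 at signals under 100 to 0.063 over 10000. Genes of like signal were not compared, so narrow intervals and small spread are not shown to be traits of this group. Differences were split evenly by sign, with 24 above and 24 below 0, where 53.1% of all genes were above 0. The median log2 difference was 0.00094, beside 0.0064 over all genes.

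**Figure D1:**
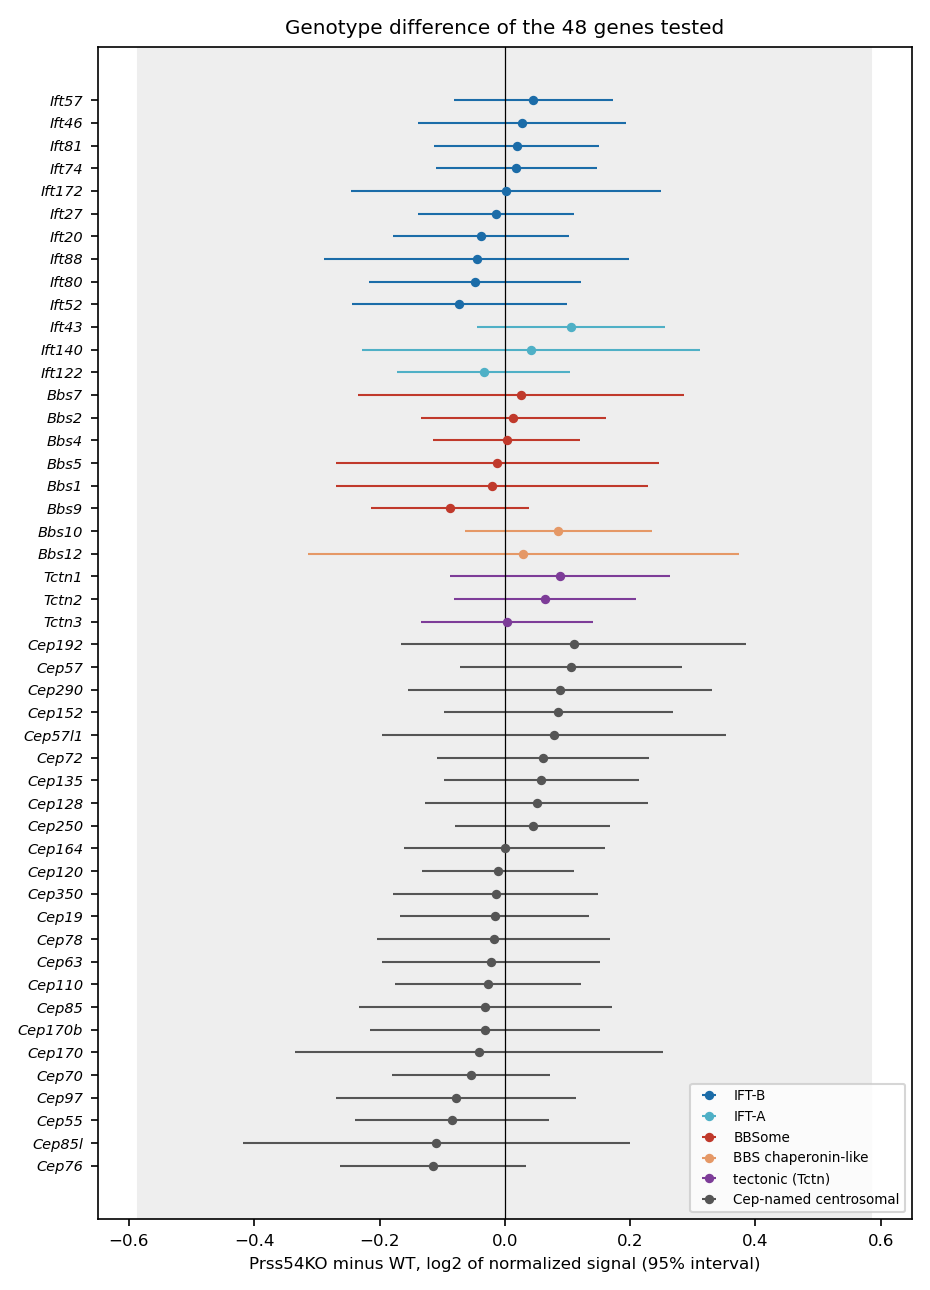
Log2 difference (Prss54KO minus WT, horizontal axis) of each of the 48 tested genes, grouped by role, with points for the limma estimate bars for its 95% interval (n = 3 mice each) and a grey band for 1.5-fold either way. Every point lies between -0.11 and 0.11, and every bar crosses 0 and stays inside the band.

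The labels were checked first on the targeted gene. The Prss54 probe had scaled signals of 7308, 9442 and 8264 in the 3 Prss54KO testes, against 23170, 25138 and 25327 in the WT testes. Signals here are the processed signals of the scanner files, multiplied to bring all arrays to a common 75th percentile. All Prss54KO arrays were below all WT arrays, by 1.56 on the log2 scale (SE 0.10, limma adjusted p = 0.0714). The probe's place relative to the disrupted part is not known, so a signal that remains does not test the knockout. Between 66.2% and 74.8% of gene spots were well above background on each array, and the log2 levels of any pair of arrays correlated at 0.994 to 0.997 across genes.

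Signal was measured for nearly all of these genes. Of the 105 probes, 95 (90.5%) were well above background on all 6 arrays, against 64.98% of all gene probes. Among probes designed on a RefSeq mRNA the share was 83 of 85 (97.6%), against 76.2% of 27147. Cep68, a protein of the linker that ties centrioles together, was the gene left untested. Its only probe read 16.8, 10.6 and 31.4 in Prss54KO and 15.2, 11.7 and 7.73 in WT testes and was well above background on 1 Prss54KO array, so that no fold is given. In whole tissue, fewer cells of a type and less RNA per cell cannot be told apart in any of these levels.

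One feature of the promoters that the gene names do not fix is the X-box, the site of RFX transcription factors, which drive many ciliary genes from worms to mammals. The motif searched, on both strands, was GTNNCC, then 3 bases of any kind, then GNAAC, in RefSeq promoters from 250 bases before to 50 bases after the gene's start (GRCm38.p6). Promoters were found for 42 of the 49 genes, and 7 of them (16.7%) held the motif, against 673 of 27025 (2.49%) of all promoters. By family these were 3 of 8 Bbs, 2 of 3 Tctn, 1 of 10 Ift and 1 of 21 Cep promoters. The sites are shown because they are what these promoters share: the matched bases are in capitals, up to 8 neighbours on each side are in lower case, and each reads 5′ to 3′ on a strand that holds the motif.
Bbs7, chr3:36613497-36613510: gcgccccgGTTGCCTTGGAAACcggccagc
Bbs4, chr9:59353472-59353485: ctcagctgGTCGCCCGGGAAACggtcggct
Bbs1, chr19:4906613-4906626: tcccaggcGTCGCCTTGGCAACcagctcag
Tctn1, chr5:122264411-122264424: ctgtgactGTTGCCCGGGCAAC
Tctn2, chr5:124598687-124598700: gaggaccaGTAGCCATGGTAACctccaatc
Ift57, chr16:49699207-49699220: ggcagccgGTCACCACGGCAACcagacccg
Cep19, chr16:32099811-32099824: agccttctGTTGCCTTGGGAACgatcctcg
The sites of Bbs7, Tctn1 and Cep19 match on both strands and are printed on the gene's own. The site of Bbs4 matches on the gene's own strand, and those of Bbs1, Tctn2 and Ift57 on the opposite one. The 7 genes with a site had log2 differences from -0.021 (Bbs1) to 0.087 (Tctn1), inside the range of the whole group. A match is a description of the letters and not a shown binding site. Of 7 RFX and other ciliary transcription factor genes measured, 0 passed the test, with Rfx1 at 0.29 (SE 0.20) and Rfx4 at -0.069 (SE 0.06).

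Of the 10 IFT-B subunits 0 passed the test, and their log2 differences ran from -0.073 to 0.046, 5 above and 5 below 0, with a median of -0.0059. Ift88, the gene mutated in the Oak Ridge polycystic kidney mouse, read 4261, 5292 and 5354 in Prss54KO and 5193, 5194 and 4916 in WT testes. One Prss54KO mouse was the lowest of the 6 and the other Prss54KO mice were the highest, so the groups overlapped (difference -0.045, SE 0.10). Ift52, part of the same core, read 6499, 5851 and 6287 in Prss54KO and 6477, 6957 and 6173 in WT testes. It had the most negative difference of the IFT-B genes, -0.073 (SE 0.07), with overlapping groups. Ift57, a peripheral subunit, stood at the other end, at 0.046 (SE 0.05).

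Ift81 and Ift74 form the pair of subunits that bind tubulin. Ift81 read 13714, 14519 and 14606 in Prss54KO and 13612, 14295 and 14372 in WT testes. Ift74 read 16497, 17001 and 16488 in Prss54KO and 15735, 16811 and 16834 in WT testes. Their log2 differences were 0.019 and 0.018, each with an SE of 0.05. Ift20, which is also found at the Golgi, was at -0.039 (SE 0.06). Ift27, a small GTPase-like subunit needed in mouse sperm and for BBSome exit from cilia, was at -0.014 (SE 0.05). Ift46 was at 0.027 (SE 0.07) and Ift80 at -0.047 (SE 0.07).

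Of the IFT-A genes, Ift43 had the difference nearest to the threshold in the whole IFT family. It read 57637, 62064 and 61531 in Prss54KO and 54180, 59247 and 55059 in WT testes. The highest WT value lay above the lowest Prss54KO value, and the difference of 0.11 (SE 0.06) had an interval from -0.044 to 0.26 (limma unadjusted p = 0.135). The core subunits Ift122 and Ift140 stood at -0.034 (SE 0.06) and 0.042 (SE 0.11). Ift140 was the more variable, at 34577, 31900 and 31565 in Prss54KO and 35845, 27172 and 32753 in WT testes, with both the highest and the lowest value in WT.

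Among the 6 BBSome subunits the log2 differences ran from -0.088 to 0.026, 3 above and 3 below 0. Bbs9, a scaffold subunit, read 7322, 6919 and 7304 in Prss54KO and 7833, 7559 and 7505 in WT testes. All 3 Prss54KO values were below all WT values, by 0.088 on the log2 scale (SE 0.05, limma adjusted p = 1.0). Across the group this held for 3 of 48 genes, or 6.25%, Bbs9, Cep70 and Cep76, each lower in Prss54KO, where 7.71% of all genes had groups that do not overlap. Over all genes, 4.07% were higher without overlap and 3.64% lower.

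Bbs2 lies on chromosome 8, as Prss54 does, with its probe 1.48 Mb from that of Prss54 in the mm9 build. It read 1400, 1403 and 1403 in Prss54KO and 1403, 1469 and 1301 in WT testes, so that the WT values lay on both sides of the Prss54KO values (difference 0.013, SE 0.06). Bbs4, whose loss in mice removes the sperm flagellum, stood at 0.0030 (SE 0.05). Bbs1, Bbs5 and Bbs7 were at -0.021 (SE 0.10), -0.012 (SE 0.11) and 0.026 (SE 0.11). The chaperonin-like proteins Bbs10 and Bbs12, which help the BBSome to assemble, were at 0.085 (SE 0.06) and 0.030 (SE 0.14). Bbs10 read 3751, 3469 and 3692 in Prss54KO and 3308, 3616 and 3362 in WT testes, and its groups overlapped through the lowest Prss54KO and the highest WT mouse.

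The 3 tectonic genes all had differences above 0, of 0.087 for Tctn1 (SE 0.07), 0.064 for Tctn2 (SE 0.06) and 0.0034 for Tctn3 (SE 0.06). Tctn1 read 3017, 3361 and 2987 in Prss54KO and 2853, 3118 and 2839 in WT testes. Its groups overlapped, as did those of the other tectonic genes, and 0 of the 3 passed the test.

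The 24 tested Cep genes had 9 differences above and 15 below 0, with a median of -0.015. Cep76, which restrains repeated centriole duplication, read 642, 609 and 650 in Prss54KO and 722, 685 and 652 in WT testes. The Prss54KO values lay below the WT values by a narrow gap (difference -0.11, SE 0.06, limma unadjusted p = 0.106). Cep70, a centrosome protein that interacts with gamma-tubulin, read 4489, 4213 and 4497 in Prss54KO and 4604, 4497 and 4595 in WT testes. Its highest Prss54KO and lowest WT values were the same to the nearest unit, and the difference was -0.054 (SE 0.05).

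Cep57, a protein of the pericentriolar material, read 7874, 8121 and 8933 in Prss54KO and 7271, 7799 and 8089 in WT testes, with overlap (difference 0.11, SE 0.07). Cep55, which drives abscission in dividing cells and is held at the bridges between male germ cells, read 2346, 2154 and 2309 in Prss54KO and 2495, 2452 and 2271 in WT testes (difference -0.084, SE 0.06). Cep152 and Cep192, which recruit the kinase Plk4 to start new centrioles, were at 0.086 (SE 0.07) and 0.11 (SE 0.11). The spread of Cep192 lay in WT, at 3980, 3676 and 3844 in Prss54KO and 3035, 3618 and 4076 in WT testes. The groups of Cep55, Cep152 and Cep192 overlapped. Cep97, part of the cap that keeps centrioles from growing cilia, was at -0.077 (SE 0.08), and Cep135, a cartwheel protein, at 0.059 (SE 0.06).

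**Figure D2:**
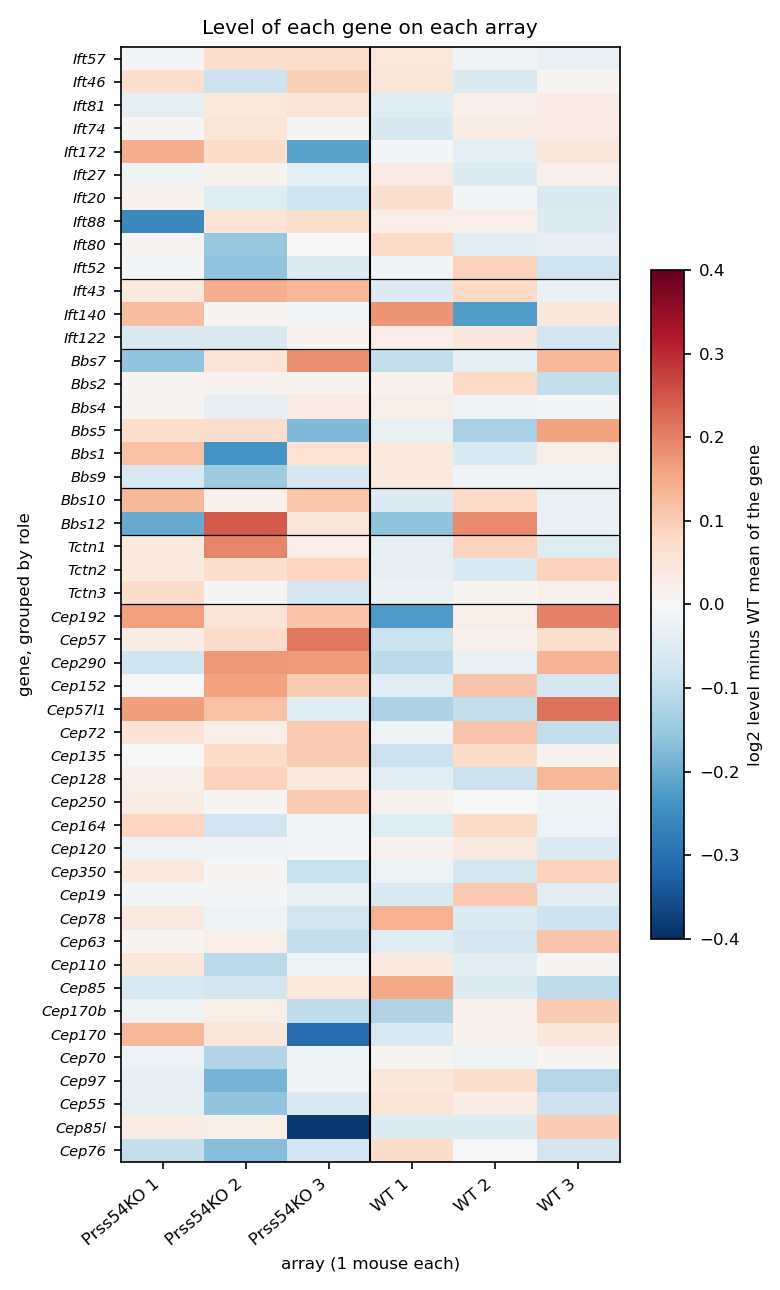
Heat map of the 48 tested genes (rows, by role) on the 6 arrays (columns, Prss54KO mice left of WT mice), coloured by the log2 level minus the gene's WT mean, red above and blue below it. The darkest blue cell is Cep85l in Prss54KO mouse 3. The median over the genes lay between 0.0017 and 0.016 in the 3 Prss54KO mice and between -0.019 and -0.0016 in the 3 WT mice.

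**Figure D3:**
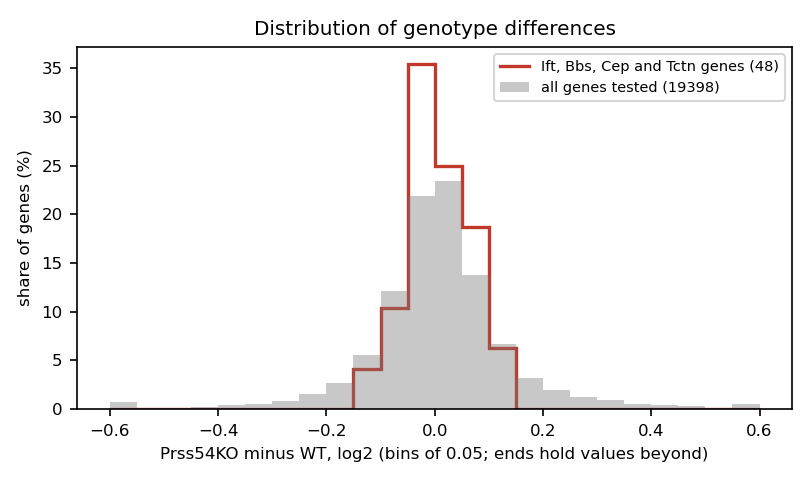
Distribution of the log2 difference (Prss54KO minus WT, horizontal axis) over the 48 tested genes and over all 19398 genes tested, as a share of genes. The 48 genes all lie within 0.2 of 0, where 89.4% of all genes do.

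Different probes of a gene were compared, because the brightest one stands for the gene in the values above. Of the 100 tested probes, 0 passed an adjusted p of 0.05 in the fit over 28923 probes, where 0% of all probes did, and 0 had an unadjusted p under 0.05, against 3.2% of all probes. In 7 of 100 the groups did not overlap, against 7.8% of all probes. Of these, 3 were higher and 4 lower in Prss54KO, against 4.21% and 3.6% of all probes. The 31 genes with several tested probes had a median gap between their most different probes of 0.073 on the log2 scale, beside 0.082 over 6645 genes. In 14 of the 31 (45.2%) all probes had the same sign, against 52.2% over those genes. Probes disagreed in sign and lay more than 0.2 apart in 5 genes: Cep128 (-0.15 to 0.42), Cep192 (-0.19 to 0.18), Cep135 (-0.20 to 0.06), Cep97 (-0.08 to 0.17) and Ift80 (-0.05 to 0.20).

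The value farthest from 0 came from a dim probe. The Cep128 probe at 0.42 (SE 0.18) read 54.9, 46.2 and 62.2 in Prss54KO and 44.5, 31.9 and 46.7 in WT testes, with overlap, while the brightest Cep128 probe was at 0.051 (SE 0.07). The 11 tested probes with a mean signal under 100 ran from -0.20 to 0.42 with a median SE of 0.17. The 18 over 10000 ran from -0.11 to 0.11 with a median SE of 0.063. The interval of the difference lay within 1.5-fold either way for 96 of 100 probes, against 88.4% of all probes.

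Slide, the glass that holds several arrays, was not balanced over the genotypes. Slide 2 held 2 Prss54KO mice (1 and 2) and WT mouse 3, slide 1 held Prss54KO mouse 3, and slide 3 held WT mice 1 and 2. With genotype in the fit, the slide terms had an unadjusted p under 0.05 in 5 of 48 genes (10.4%), against 13% of all genes, and an adjusted p under 0.05 in 0 of 48, against 0.0155% of all genes. The 3 arrays of slide 2 did not overlap the other 3 in 11 of 48 genes (22.9%), against 19.2% of all genes. Of these, 7 were higher and 4 lower on slide 2, against 11.2% and 8.04% of all genes. With slide as a random block over all 6 arrays, 0 of the 48 genes passed the test. Slides 1 and 3 each held a single genotype, so a fit with slide as a fixed block takes the genotype difference from slide 2 alone, as Prss54KO mice 1 and 2 against a lone WT mouse. That comparison also called 0 of the 48, but it rests on 3 mice and assumes that the lone one varies like the others.

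Several genes were picked out after their values were seen, because their spread followed the slides. Bbs5, a BBSome subunit that binds phosphoinositides, read 24515, 24532 and 20651 in Prss54KO and 22856, 21349 and 26081 in WT testes. Its slide 2 arrays were the 3 highest, and both of its probes were higher there, by 0.26 and 0.21 on the log2 scale. Cep63, the partner of Cep152, was also higher on slide 2 by both probes, by 0.092 and 0.12. Cep57l1, a relative of Cep57, had the largest slide 2 difference of the 48 genes, 0.26, but its other probes were at 0.085 and -0.062 and so disagreed in sign. Cep85l read 81746, 81420 and 61330 in Prss54KO and 77299, 77291 and 85814 in WT testes, the lowest being Prss54KO mouse 3.

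Ift172, the largest IFT-B subunit, differed between its own probes. Its brightest probe, designed on another cDNA, read 133017, 126529 and 103614 in Prss54KO and 119431, 117225 and 124038 in WT testes. Its 3 probes on the RefSeq mRNA lie on the minus strand of chromosome 5 in the mm9 build, and are shown because they give different patterns for 1 gene. The mapped stretches of the probes at transcript bases 4402 and 4872 are longer than the probes, so each spans a splice junction. The stretch given for base 3230 covers 57 of the probe's 60 bases. Neither an annotation nor a genome of mm9 was used here, and exon numbers are not given.
Ift172 base 3230, chr5:31565782-31565838: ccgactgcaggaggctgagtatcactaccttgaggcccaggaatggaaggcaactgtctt
Ift172 base 4402, chr5:31558996-31559272: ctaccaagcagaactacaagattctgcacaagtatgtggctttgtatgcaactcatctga
Ift172 base 4872, chr5:31556676-31556819: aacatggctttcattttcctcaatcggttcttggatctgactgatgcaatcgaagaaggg
The probe at base 4872 read 37546, 33687 and 24865 in Prss54KO and 33397, 33363 and 31530 in WT testes. Prss54KO mouse 3 was the lowest and Prss54KO mouse 1 the highest. The probe at base 4402 read 1977, 1878 and 1839 in Prss54KO and 2019, 1995 and 1943 in WT testes, with Prss54KO mouse 3 again the lowest but closer to the other arrays. The probe at base 3230 read 908, 853 and 966 in Prss54KO and 921, 868 and 854 in WT testes, with Prss54KO mouse 3 the highest. Log2 differences between genotypes were 0.0020 for the brightest probe, and 0.044, -0.066 and -0.053 at bases 3230, 4402 and 4872, with 0 of 4 probes past the test. Cep170, a protein of the subdistal appendages, had 1 probe of 4 tested, at base 4538, with a low value in Prss54KO mouse 3. That probe read 5112, 4809 and 3769 in Prss54KO and 4467, 4707 and 4809 in WT testes. The other tested Cep170 probes were far dimmer. Those at bases 931, 3463 and 6047 read 104, 79.4 and 275 in Prss54KO mouse 3. The probes at bases 931 and 3463 were designed on other cDNAs.

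**Figure D4:**
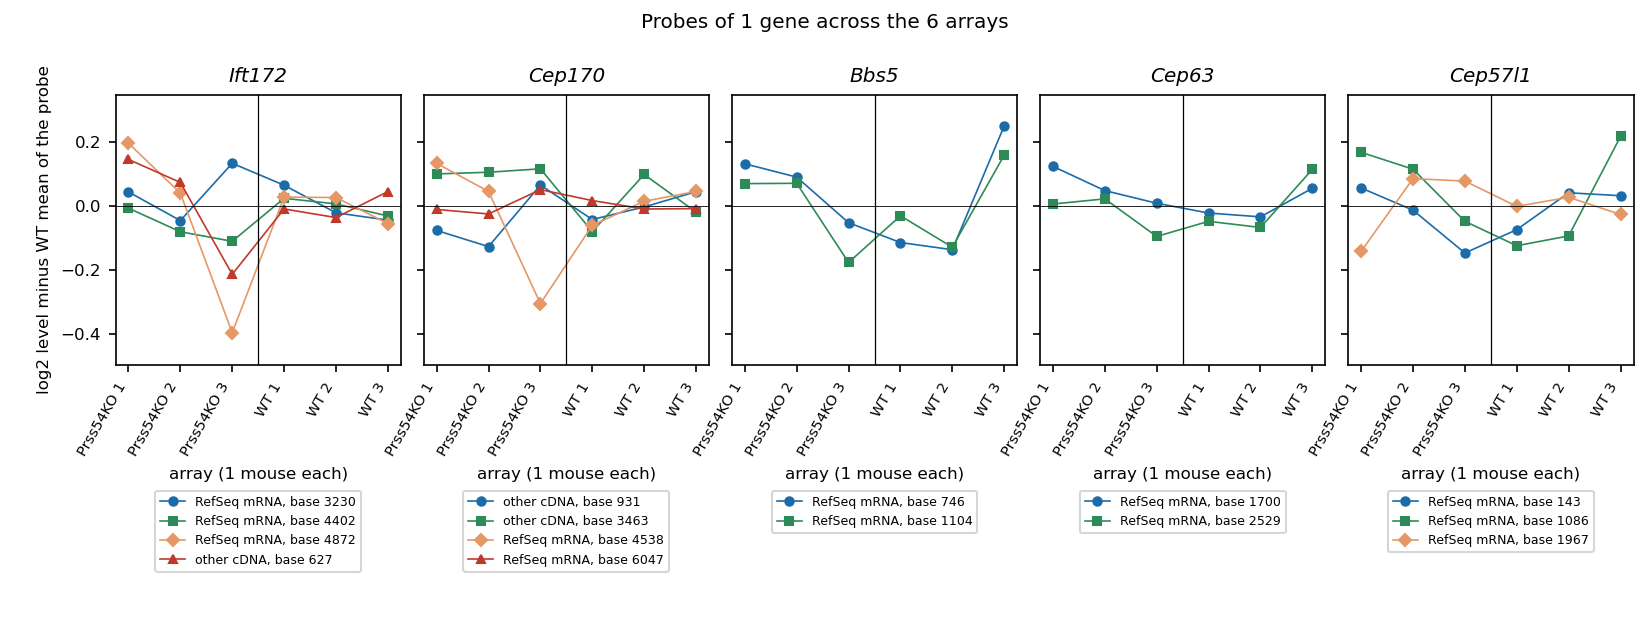
Log2 level of each tested probe of Ift172, Cep170, Bbs5, Cep63 and Cep57l1 on each array, as the deviation from that probe's WT mean (vertical axis), with Prss54KO mice left of WT mice and lines joining the points of 1 probe. The lowest points, in Prss54KO mouse 3, belong to the Ift172 probe at base 4872 and the Cep170 probe at base 4538, at -0.40 and -0.31. In the same mouse the other Ift172 probes lie at -0.21, -0.11 and 0.13, and the other tested Cep170 probes between 0.051 and 0.12. These other Cep170 probes had much lower signals than the probe at base 4538.

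The median over the spermatid markers, though not each marker, was also lowest in Prss54KO mouse 3. All 13 of 13 spermatid markers were measured, 7 above and 6 below 0, with a median difference of 0.013. Their median deviation from the WT mean was 0.026, 0.10 and -0.069 in Prss54KO mice 1, 2 and 3 and -0.035, -0.037 and 0.048 in WT mice 1, 2 and 3. Their summed scaled signal ran from 2002890 to 2160260 in Prss54KO and from 2018060 to 2130290 in WT testes. The part of the slide and of the spermatid share in these values was not tested. Prss54KO mouse 3 was alone on slide 1, so slide, mouse and spermatid share cannot be told apart in its values.

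Genes of the same machinery under other names were counted from lists of subunits, motors, transition-zone and centriole genes. Of 82 such genes on the array, 81 were tested, and 0 were higher and 0 lower at an adjusted p of 0.05, where 0% of all genes passed. Differences were above 0 in 47 of the 81, where 53.1% of all genes were above 0. They ran from -0.19 to 0.21 with a median of 0.017, beside 0.0064 over all genes. Wdr35, an IFT-A subunit, stood at 0.078 (SE 0.05) and Ttc30a1, an IFT-B subunit, at -0.058 (SE 0.07). Kif17, a kinesin-2 motor that has also been described in mouse spermatids, was at 0.20 (SE 0.14). Lztfl1, which regulates BBSome entry into cilia, was at 0.056 (SE 0.05), and Sdccag8, a centrosome protein and Bardet-Biedl gene, at 0.11 (SE 0.07). Rpgrip1 and Iqcb1 of the transition zone were at -0.077 (SE 0.05) and -0.079 (SE 0.06). Spice1, needed for centriole duplication, was at -0.093 (SE 0.05), and Kif24, a kinesin at the centriole cap, at 0.082 (SE 0.05).

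The labelled tissue was checked on testis markers, and 13 of 13 spermatid, 12 of 12 spermatocyte, 12 of 12 Sertoli and 9 of 9 Leydig genes on the array were well enough above background to be tested. The germ-cell lists had medians near 0, at 0.013 for spermatids, -0.017 for spermatocytes and -0.017 for spermatogonia. Of the fibroblast and matrix genes, 10 of 10 had differences below 0, where 53.1% of all genes were above 0. These 10 had a median of -0.26, with 4 at an unadjusted p under 0.05, against 3.3% of all genes, and 0 past the adjusted one. Their summed signal ran from 80424 to 99436 in Prss54KO and from 95720 to 111366 in WT testes. Other lists with medians away from 0 were red blood cells at -0.45 (4 of 5 below 0) and fat cells at -0.13 (5 of 6 below 0). Endothelium was at -0.092 (7 of 10 below 0). Also below 0 were 9 of 10 macrophage, 7 of 8 peritubular and smooth muscle and 6 of 9 Leydig genes. Genes of 1 list were read on the same mice, so these counts are not counts of replicates. The fibroblast and matrix median lay at -0.28, -0.48 and -0.081 from the WT mean in Prss54KO mice 1, 2 and 3. In WT mice it lay at -0.021, -0.12 and 0.11. The macrophage median lay at 0.076, -0.34 and -0.062 in Prss54KO and 0.017, -0.099 and 0.076 in WT mice. Prss54KO mouse 2 was the lowest of the 6 mice in both, and for endothelium. Summed red blood cell signal ran from 17814 to 23715 in Prss54KO and from 17327 to 43973 in WT testes. That of fat cells ran from 4998 to 5988 in Prss54KO and from 4191 to 5747 in WT testes. In both lists the groups overlapped. The red blood cell median lay at 0.72, -0.70 and 0.029 from the WT mean in WT mice 1, 2 and 3. Of 7 epididymis markers on the array, 5 fell short of the filter on low signals, and both that were tested had differences above 0. Defb41 read 431, 414 and 449 in Prss54KO and 363, 389 and 370 in WT testes, without overlap (difference 0.20, SE 0.06, limma unadjusted p = 0.0115, adjusted p = 1.0). Lcn9 read 93.0, 80.4 and 97.9 in Prss54KO and 42.8, 65.2 and 88.4 in WT testes, with overlap (difference 0.52, SE 0.26). In each of these lists 0 genes passed the adjusted threshold, and the part of these cell types in the values of the Ift, Bbs, Cep and Tctn genes was not tested.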

How the data were processed

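The data came from testis RNA of 3 Prss54KO and 3 WT mice. The deposited intensity values are Agilent processed signals, background-subtracted by Feature Extraction 10.7.3.1, per the file headers (10.7 in the submitters' processing notes). The authors' deposited log2 table was used as an alternative. Probe names, positions (mm9) and the marks for outliers and for spots well above background were taken from the deposited files.

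From these, log2 signals were centred on each array's 75th percentile, outlier spots were left out, spots of a probe were averaged, and 28923 probes that stood well above background on 3 or more arrays were kept. Each of 19398 genes was represented by its brightest probe. limma 3.58.1 in R 4.3.3 (lmFit, eBayes, two-sided, all 6 arrays) gave differences, 95% intervals and p-values, adjusted by Benjamini-Hochberg over the whole table and called at 0.05. The number of arrays limits the precision. The scripts were tested on simulated data. Replicate numbers were not taken as pairs in the main fit. Deviations of same-numbered mice correlated at -0.04, 0.02 and -0.16. No same-numbered mice shared a slide, so these values cannot settle whether the mice were paired.

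The genes and lists were chosen with earlier results of these data known. Named genes are all Ift, Bbs and Tctn genes, the 8 Cep genes with the smallest unadjusted p, genes on chromosome 8, genes whose probes disagree, untested genes, and up to 2 of each list. Other Cep genes named for their slide pattern or promoter were picked after values were seen.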

Additional observations from a re-analysis of the deposited data

How the results depend on the processing

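Under each of 19 alternatives (scaling, background correction, filter, choice of probe, the authors' table, array weights, slide, replicate numbers, and each mouse left out) 0 of the genes passed an adjusted p of 0.05 and 0 had an unadjusted p under 0.05. The median log2 difference, 0.00094, moved by more than its small spread to -0.0095 with quantile normalization, -0.018 with median scaling, 0.015 with the mean of a gene's probes and -0.0085 in the authors' table. Over all genes the median, 0.0064, became -6.6e-05, -0.013, 0.0077 and -0.0019 under the same alternatives, in that order. With 1 mouse left out the group's median lay between -0.010 and 0.015, and that of all genes between 0.0042 and 0.010. Median scaling differs from the main scaling by 1 constant an array, so it shifted the difference of every gene by the same amount. The cause of the other moves was not tested. With the replicate number as a block the median stayed at 0.00094, which the balanced numbers fix in advance, and 0 genes were called. Intervals lay within 1.5-fold for all 48 genes except with slide as a fixed block (47 of 48), on slide 2 alone (44 of 48), which give the same differences from the same 3 mice, and without the filter (48 of 49), where Cep68, at background, had a difference of 0.68. Of 627 values of 33 named genes under the alternatives, 77 changed sign and 20 moved by at least 1 SD. Not all of the 627 could move that far, so 20 of 627 is no measure of stability. Leaving out 1 of 3 mice shifts a difference by less than 1 SD whatever the values, and 0 of the 20 came from there. A fit with an intensity trend and robust variance changes only the variance, so its differences were those of the main fit. Of the 20, 16 were with a slide block or on slide 2 alone. Slide as a fixed block and slide 2 alone gave the same differences, so a change there was counted under both. The replicate block could not change a difference either, because each replicate number held 1 mouse of each genotype. Over all genes, the count at an unadjusted p under 0.05 ran from 386 without WT mouse 1 to 1261 without WT mouse 3, around 640. At the adjusted threshold, with slide 2 alone and slide as a fixed block left aside, at most 2 of all genes passed. The filter on all 6 arrays, for instance, gave 2 of 18091.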
